A study of Mus musculus with 8 samples.

Results

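Axon guidance ligands and receptors are the secreted and membrane-bound cues that steer growing axons, together with the receptors on the growth cone that read them. The set described here held 40 genes chosen by name, namely the Slit and Robo genes, the netrins and their receptors, class 3, 5, 6 and 7 semaphorins with plexins and neuropilins, and ephrin-A ligands with Eph-A receptors. They were measured with Affymetrix mouse exon arrays in cortex RNA from embryos at embryonic day 18.5. The 2 groups were 4 wild type embryos and 4 embryos with a knockout of Ptbp2, which encodes a splicing regulator of developing neurons that binds pyrimidine-rich RNA. The labels give no sex. All 8 embryos had the same mixed CD1 and C57BL/6 background, and each array carried 1 embryo. The sources give neither the knockout allele nor the reach of the deletion across the body, and a whole piece of cortex mixes neurons, progenitors, glia and vessels.

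Slit proteins repel axons through Robo receptors and keep commissural axons from crossing the midline again. Netrin-1 attracts axons through Dcc and repels them through Unc5 receptors, so the same ligand can have opposite effects. Secreted class 3 semaphorins mostly act through a neuropilin that binds the ligand and a plexin that carries the signal, whereas most transmembrane semaphorins bind plexins directly. Ephrin-A ligands and Eph-A receptors signal by contact between cells and set up graded maps, including the map of thalamic axons onto the cortex. In the late embryonic cortex these families guide callosal, corticofugal and thalamocortical axons and the migration of newborn neurons.

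An exon array reads a gene with many probe sets, and each value below is a log2 signal, on which a difference of 1 is a doubling. The array held 1211 probe sets with the single name of a member, and 1075 of them (88.8%) had a mean signal at or above the table median of 6.84 and were retained. Of the 40 genes, 39 had at least 4 retained probe sets and were tested among 12960 genes in all. The exception was Nrp2, a neuropilin, with 1 probe set of its own, which was not retained, while a further 28 carried both its name and that of Pard3b and were not used. The share retained was lowest for Robo3 (7 of 41), Sema3e (14 of 28) and Sema3d (14 of 27), so the levels of these 3 rest on a selected part of their probe sets.

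Ptbp2 was at 11.40, 11.15, 11.08 and 11.16 on the wild type arrays and at 6.24, 5.80, 5.54 and 6.22 on the knockout arrays, a log2 fold change of -5.25 (limma adjusted p = 1.7e-12), in the direction the labels state. The knockout values lay below the filter of 6.84, so the size of this difference is not exact. On the first 2 principal components of all gene values, wild type 3 lay farthest from its nearest array (16.2), then knockout 3, knockout 1 (13.8) and wild type 1 (13.3), where the other 4 arrays had a neighbour within 4.59. Differences were also computed without both arrays numbered 3 and without each array in turn. Of the excitatory neuron markers, 13 of 14 were tested, and their mean level was 10.17 to 10.39 in wild type and 10.20 to 10.29 in knockout cortex, with 8 of the 13 below wild type and none past the threshold. Neurod6, a transcription factor of cortical pyramidal neurons, had means of 11.54 and 11.56, while Slc17a7, a vesicular glutamate transporter, ran from 9.24 to 9.85 in wild type and from 8.71 to 9.13 in knockout cortex (log2 fold change -0.49, adjusted p = 0.36). Differences here are between pieces of tissue, so a change in the number of cells that carry a transcript cannot be told apart from a change in transcript per cell.

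No axon guidance gene changed in level past the threshold of a limma adjusted p of 0.05. The count was 0 of 39, beside 0.116% of all genes tested (0.0617% lower and 0.054% higher in the knockout), and the smallest adjusted p of a member was 0.56. At an unadjusted p under 0.05 there were 4 members, Ntn1, Sema3d and Plxnc1 with lower and Unc5c with higher means in knockout cortex, and 6.49% of all genes met that mark, 3.79% with lower and 2.7% with higher means. The log2 fold changes of the 39 lay between -0.35 (Ntn1) and 0.24 (Unc5c). Means were below wild type for 25 of 39 members (64.1%) and for 49% of all genes, and the median log2 fold change was -0.065 for the members and 0.003 for all genes. Without wild type 1 the members' median was -0.015, and that of all genes 0.032.

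The arrays limited these comparisons to moderate sizes of effect. The standard errors of the 39 log2 fold changes lay between 0.084 (Unc5b) and 0.14 (Efna3). The 95% interval lay within 1 log2 unit of 0 for all 39 members tested, so a doubling or a halving of the array signal was outside each gene's own interval. It lay within 0.5 for 37 of them, the exceptions being Ntn1, with a lower bound of -0.60, and Plxnc1, with a lower bound of -0.51. These intervals are per gene and carry no correction for the number of genes. They hold for the array signal of the retained probe sets, not for the transcript. In the dim genes Robo3, Sema3d, Sema3e and Ntn1, a change of the transcript may be compressed.

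**Figure D1:**
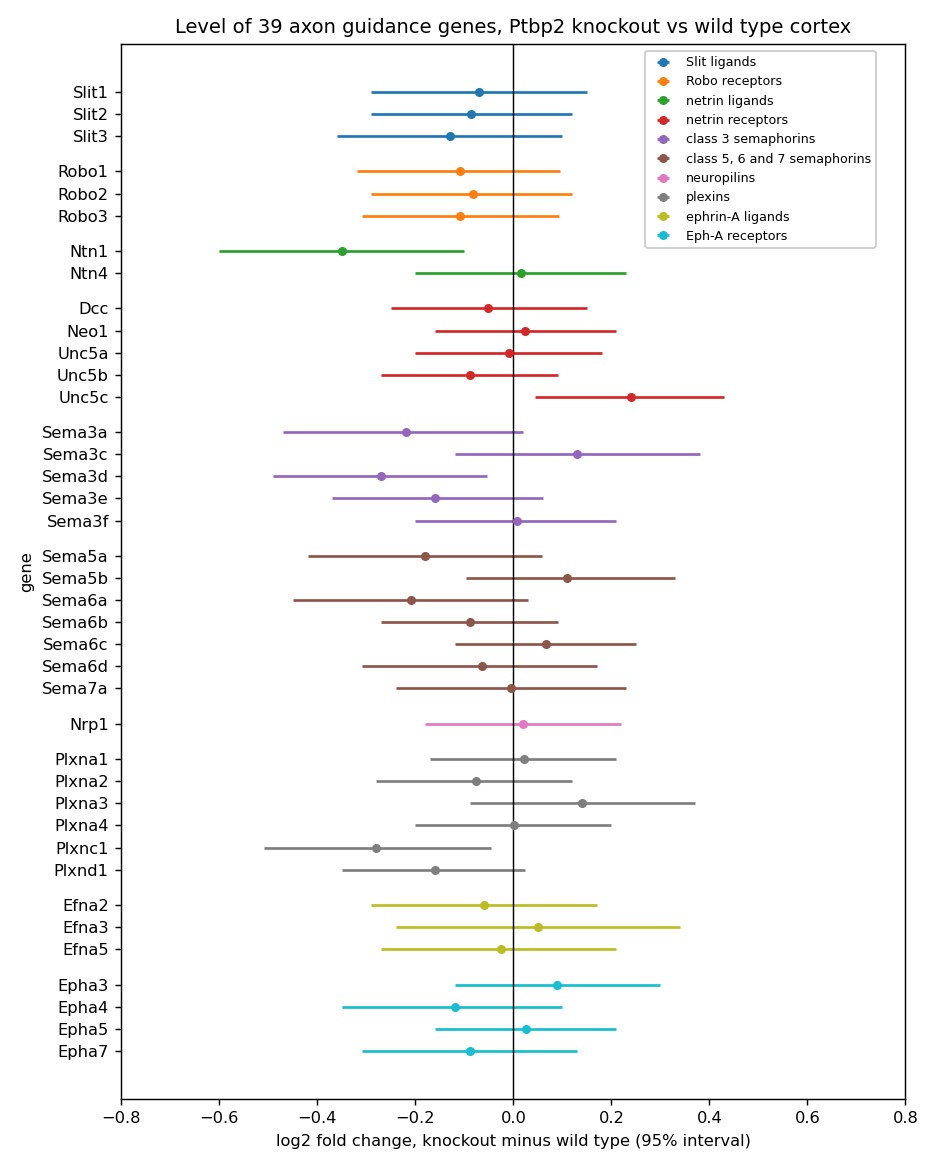
Log2 fold change (knockout minus wild type, x axis) of the 39 tested axon guidance genes (y axis, grouped and coloured by role), with bars for the 95% interval from limma and 4 arrays per group. The intervals of Ntn1, Sema3d, Plxnc1 and Unc5c exclude 0 before correction, and every bar lies between -0.60 and 0.43.

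Among the ligands of the midline system, Slit1, Slit2 and Slit3 had log2 fold changes of -0.070, -0.086 and -0.13, none past the threshold (adjusted p of at least 0.91). Slit3 was at 8.43, 8.43, 8.61 and 8.43 in wild type and at 8.39, 8.23, 8.61 and 8.16 in knockout cortex, where knockout 3 matched the highest wild type array. Of its 35 retained probe sets, 33 had lower means in the knockout, by up to 0.53. Slit1 reached its highest value of all in knockout 1 (9.15) and its lowest in knockout 3 (8.76), so the knockout arrays covered a wider range than the wild type ones (8.84 to 9.05).

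The Robo receptors gave a similar picture. Robo1 had a log2 fold change of -0.11 (SE 0.097), Robo2 of -0.083 (SE 0.096) and Robo3, a divergent Robo that lets commissural axons cross, of -0.11 (SE 0.096). Robo1 was at 11.23, 10.92, 11.26 and 11.19 in wild type and at 11.08, 11.02, 10.95 and 11.11 in knockout cortex. Wild type 2 was the lowest array of all, and the other 3 wild type arrays lay above every knockout array. All 6 Slit and Robo genes had means below wild type, and under array weights Slit2 was at 0.0016. Without both arrays numbered 3, Robo1 was at -0.046 and Slit2 at -0.035.

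Netrin-1, the attractant encoded by Ntn1, had the smallest unadjusted p of the set. Its gene value was 8.14, 8.29, 7.93 and 8.04 on the wild type arrays and 7.84, 7.71, 7.47 and 7.98 on the knockout arrays. Knockout 4 lay above wild type 3, and the other 3 knockout arrays lay below every wild type array. The means were 8.10 ± 0.16 and 7.75 ± 0.21 (SD, n = 4 each), a log2 fold change of -0.35 (SE 0.12), or 0.785 of the wild type level (95% interval 0.662 to 0.931). The limma unadjusted p was 0.0086 and the adjusted p 0.56, with an exact permutation p (two-sided) of 0.0571, where 4 against 4 arrays can reach 0.0286. All 10 retained Ntn1 probe sets had lower means in the knockout, by 0.12 to 0.49. Probe sets of 1 gene share the same RNA and are not replicates. With a knockout mean of 7.75 Ntn1 was dim, so the size of its difference may be compressed.

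Ntn4, a netrin of basement membranes, had a log2 fold change of 0.016 (SE 0.10), with a sign that turned in several settings, among them quantile (-0.020) and cyclic loess (-0.027) normalization. Its wild type arrays ran from 7.77 to 8.22 and its knockout arrays from 7.96 to 8.00.

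The netrin receptors held the 1 tested member whose groups did not overlap (2.56% of the 39, beside 3.65% of all genes). Unc5c, a repulsive netrin receptor, was at 8.66, 8.58, 8.71 and 8.57 in wild type and at 8.97, 8.73, 8.95 and 8.82 in knockout cortex. The lowest knockout array (8.73) lay just above the highest wild type array (8.71). The means were 8.63 ± 0.065 and 8.87 ± 0.12 (SD, n = 4 each), a log2 fold change of 0.24 (SE 0.092) or 1.18-fold, with a limma unadjusted p of 0.020, an adjusted p of 0.72 and an exact permutation p of 0.0286. Of 25 retained Unc5c probe sets, 23 had higher means in the knockout, and 6 of them had an unadjusted p under 0.05. The probe set with the smallest such p among all members was also in Unc5c. It was 4848784, at 8.66, 8.16, 8.15 and 8.23 in wild type and at 8.72, 8.72, 8.80 and 8.82 in knockout cortex (log2 fold change 0.47, limma adjusted p = 0.42).

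The other receptors of this family lay close to 0. Dcc, the attractive netrin receptor, was at 9.81, 9.53, 9.85 and 9.73 in wild type and between 9.67 and 9.70 in knockout cortex. Its log2 fold change was -0.051 (95% interval -0.25 to 0.15). Neo1, the Dcc relative neogenin, was at 0.023, Unc5a at -0.010 and Unc5b at -0.088, with adjusted p of at least 0.93. Ntn1 and Unc5c had opposite signs, and neither passed after adjustment.

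**Figure D2:**
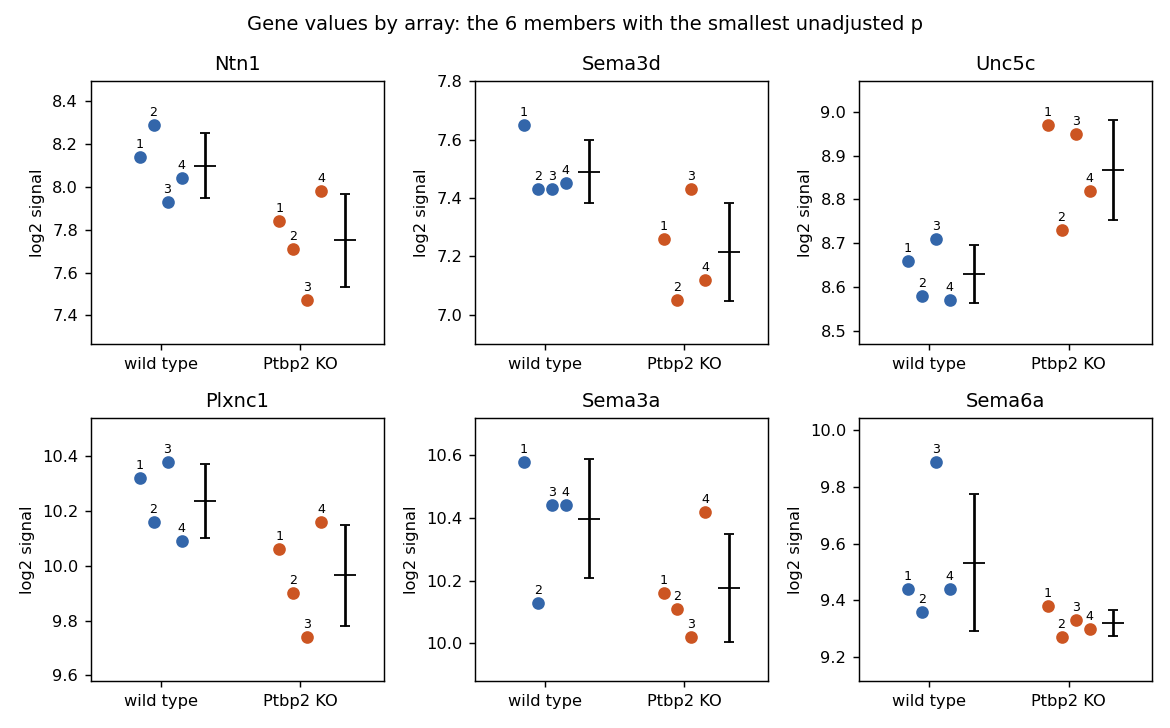
Gene values (log2 signal, y axis) on each array for the 6 members with the smallest unadjusted p, with wild type in blue, Ptbp2 knockout in orange, the replicate number above each point, and a bar for the mean and SD of 4 arrays. The groups overlap or touch in Ntn1, Sema3d, Plxnc1, Sema3a and Sema6a, and in Unc5c they are parted by the gap from 8.71 to 8.73.

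Of the secreted class 3 semaphorins, 3 of 5 had means below wild type. Sema3d was at 7.65, 7.43, 7.43 and 7.45 in wild type and at 7.26, 7.05, 7.43 and 7.12 in knockout cortex, where knockout 3 was level with wild type 2 and 3. The means were 7.49 ± 0.11 and 7.22 ± 0.17 (SD, n = 4 each), a log2 fold change of -0.27 (SE 0.10, limma unadjusted p = 0.018, adjusted p = 0.71, exact permutation p = 0.0857). With all 27 probe sets in place of the 14 retained ones, the log2 fold change of Sema3d was 0.033, so its sign depended on the signal filter. Its values lay near the filter, where a probe set may read background.

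Sema3a, which repels cortical axons through neuropilin-1, was at 10.58, 10.13, 10.44 and 10.44 in wild type and at 10.16, 10.11, 10.02 and 10.42 in knockout cortex, and the groups overlapped. Its log2 fold change was -0.22 (SE 0.11, adjusted p = 0.79), and -0.13 with the mean of the probe sets. Sema3e, a ligand of plexin-D1, had a log2 fold change of -0.16 (SE 0.10), and of -0.071 without wild type 1. Sema3c, which attracts callosal axons, had one of 0.13 (SE 0.12), and Sema3f, a ligand of neuropilin-2, one of 0.0065 (SE 0.096). Sema3c was at 0.25 without wild type 1, at 0.047 without wild type 3 and at -0.047 when its probe sets were averaged. The sign of Sema3f turned in 9 settings, 4 of them with 1 array left out.

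The transmembrane and membrane-anchored semaphorins likewise held no call. Sema6a, a ligand of class A plexins, was at 9.44, 9.36, 9.89 and 9.44 in wild type and at 9.38, 9.27, 9.33 and 9.30 in knockout cortex, where knockout 1 alone lay above a wild type array, wild type 2. The log2 fold change was -0.21 (SE 0.11, adjusted p = 0.81), and it was -0.090 without wild type 3, the array with the highest value, and -0.094 without knockout 3 as well. Sema5a had a log2 fold change of -0.18 (SE 0.11) and -0.086 without the same array (-0.12 without knockout 3 as well), where it stood at 8.98 against 8.43 to 8.70 on the other wild type arrays. Sema5b (0.11), Sema6b (-0.089), Sema6c (0.067), Sema6d (-0.065) and Sema7a (-0.0047), the anchored ligand of plexin-C1, had adjusted p of at least 0.91.

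Plexin-C1, the receptor encoded by Plxnc1, was at 10.32, 10.16, 10.38 and 10.09 in wild type and at 10.06, 9.90, 9.74 and 10.16 in knockout cortex. Knockout 4 lay among the wild type arrays and the other 3 knockout arrays lay below them all. The means were 10.24 ± 0.14 and 9.96 ± 0.19 (SD, n = 4 each), a log2 fold change of -0.28 (SE 0.11, limma unadjusted p = 0.022, adjusted p = 0.72, exact permutation p = 0.0857). Of 34 retained probe sets, 31 had lower means in the knockout. Without wild type 3 and knockout 3 the log2 fold change was -0.15, and it was -0.16 under array weights.

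The class A plexins, which carry the signals of class 3 and class 6 semaphorins, had log2 fold changes of 0.022 (Plxna1), -0.077 (Plxna2), 0.14 (Plxna3) and 0.00061 (Plxna4). Plxnd1, the receptor of Sema3e, was at 9.77, 9.63, 9.70 and 9.68 in wild type and at 9.53, 9.47, 9.64 and 9.50 in the knockout, and only knockout 3 overlapped, with wild type 2. Its log2 fold change was -0.16 (SE 0.087, adjusted p = 0.82), and 39 of its 44 probe sets had lower means in the knockout. Nrp1, the neuropilin that binds Sema3a, had a log2 fold change of 0.020 (95% interval -0.18 to 0.22).

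Ephrin-A ligands and Eph-A receptors lay near 0 throughout. Efna2, Efna3 and Efna5 had log2 fold changes of -0.061, 0.050 and -0.026. Efna3 was at 9.91, 10.01, 9.23 and 9.82 in wild type and between 9.73 and 9.85 in knockout cortex, and without wild type 3 and knockout 3 its log2 fold change was -0.13. Epha3 was at 0.088, Epha4, a receptor of both ephrin classes, at -0.12, Epha5 at 0.025 and Epha7 at -0.089, with adjusted p of at least 0.91. For Epha3, 22 of 24 probe sets had higher means in the knockout, while for Epha4 16 of 22 had lower ones.

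The members' values also varied between the arrays of a group. Wild type 1 held the highest value of 15 of the 39 genes and the lowest of none, with a median deviation of 0.117 from each gene's mean over the arrays, where all genes had 0.092. Wild type 2 held the lowest value of 10 members and knockout 2 and knockout 3 of 8 each. Wild type 3 held the highest value of 9 members and the lowest of 4, and the spread of its deviations was the widest (SD 0.179 over the members, 0.191 over all genes).

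**Figure D3:**
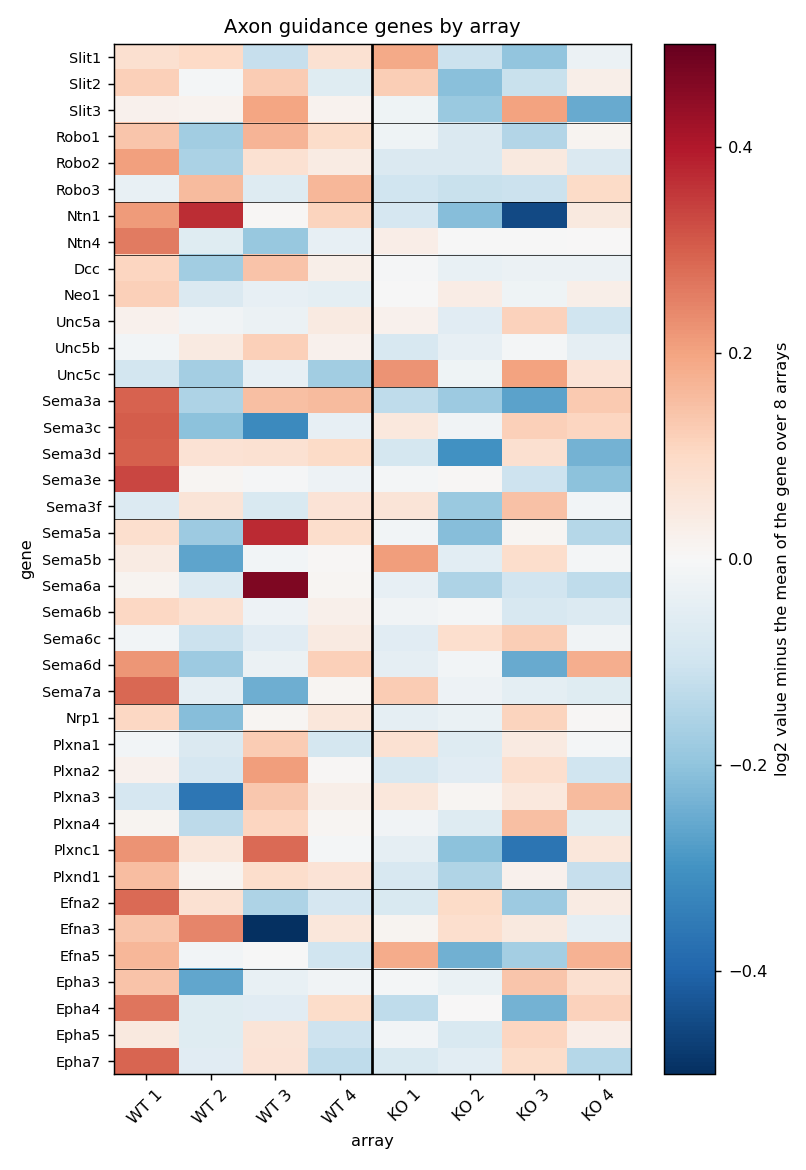
Each row is an axon guidance gene in the order of its role group, each column an array, and the colour is the log2 value minus the gene's mean over 8 arrays, from -0.5 (blue) to 0.5 (red). Wild type 1 has the highest value in 15 rows, Sema6a and Sema5a are high in wild type 3, and Ntn1 and Plxnc1 are low in knockout 3.

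Markers of tissue next to the cortex also differed between arrays. Of 17 listed markers of striatum, thalamus and hippocampus, some of which cortical cells transcribe too, 14 were tested and none passed the threshold. Means were below wild type for 9. An unadjusted p under 0.05 was met by 7 (50%, beside 6.49% of all genes), all lower: Tac1, Penk, Drd1, Drd2, Ebf1, Ikzf1 and Foxp1. Means were higher for 5, namely Tcf7l2 (0.27), Lhx2 (0.19), Zbtb20 (0.14), Prox1 (0.021) and Lef1 (0.0099), so the list level below joins markers of both directions. The lowest adjusted p was that of Tac1 (log2 fold change -0.75, adjusted p = 0.095), followed by Penk (-0.47, adjusted p = 0.18), both neuropeptide precursors of striatal neurons. The mean level of the 14 was 9.03, 8.90, 8.95 and 9.04 in wild type and 8.83, 8.73, 8.67 and 8.99 in knockout cortex. Tcf7l2, a thalamic marker, was at 9.87 in knockout 4 against 7.66 to 8.22 on the other arrays. Without it the mean level was 8.98 to 9.12 in wild type and 8.90, 8.80, 8.75 and 8.93 in knockout cortex, with knockout 4 just above knockout 1. Tcf7l2 was left out after its value was seen. With all 14 the groups overlapped, so the lack of overlap without Tcf7l2 follows from that choice and is no test. Ntn1, Plxnc1 and Sema3a, picked with their values in view, had the same order of the knockout arrays, lowest in knockout 3 and highest in knockout 4. That order was not particular to them. Robo1 had it too, and Epha4 and Sema6d were also lowest in knockout 3 and highest in knockout 4. The wild type arrays did not follow in the same way. Ntn1 was highest in wild type 2, where the list was lowest, and Plxnc1 was highest in wild type 3. Sema3a and Robo1, like the list, were lowest in wild type 2. Sema3d, also lower on average, had its highest knockout value in knockout 3 (7.43). The part of neighbouring tissue in the levels of these genes was not tested. Interneuron markers, with 13 of 14 tested and 12 below wild type, ran from 9.59 to 9.77 in wild type and from 9.35 to 9.62 in knockout cortex, again lowest in knockout 3. The 7 oligodendrocyte lineage markers tested (of 9) all had lower means and a list level of 8.35 to 8.66 in wild type and 8.25 to 8.32 in knockout cortex, and the 6 microglia markers tested (of 12) all had higher means and a level of 7.85 to 8.13 and 8.15 to 8.37. Choroid plexus markers, 10 of 12 tested and all below wild type, stood at 7.42 in knockout 2 against 8.37 to 8.71 on the other arrays. No marker in these lists passed the threshold, and their part in the members' values was not tested.

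Levels of single probe sets were compared next. None of the 1075 member probe sets passed (smallest limma adjusted p 0.42), where 0.0921% of all retained probe sets and 0.0617% of those with a single gene name did. At an unadjusted p under 0.05, 18 had higher and 28 lower means in the knockout (1.67% and 2.60%), against 2.75% and 2.85% of all probe sets with a single name, and 4.84% and 2.59% of all retained ones. Means were below wild type for 658 of the 1075 (61.2%), against 48.9% of all probe sets with a single name. The groups did not overlap in 32 of them (2.98%), against 3.76% of those with a single name and 4.24% of all retained.

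Usage asks whether a probe set differed between the groups relative to the rest of its gene, which is where a change in splicing would show. By limma diffSplice, 3 of the 1075 member probe sets passed (0.279%), 1 each in Sema3c, Robo2 and Nrp1, where 0.212% of the 195604 probe sets tested outside Ptbp2 did. That share of probe sets is near the background and is no result about the guidance genes. By gene, these 3 of 39 (7.69%) had a Simes adjusted p under 0.05, beside 2.48% of all genes, and each rests on its 1 probe set. The members held 1075 probe sets on 39 genes, and all genes outside Ptbp2 195604 on 12959, fewer per gene. The shares by gene are therefore not like for like, and no result is read from them. At an unadjusted p under 0.05 there were 47 member probe sets (4.37%, against 4.57%). The groups did not overlap in 33 (3.07%, against 2.92%), none of which was among the 3 that passed. The splicing index, which subtracts the gene's median and lets each probe set have its own variance, called 0 of them (smallest adjusted p 0.89), with 48 at an unadjusted p under 0.05 (4.47%, against 5.27% of all). The genome positions of these probe sets were not used here, so none of them is tied to an exon.

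Relative to its gene, Sema3c probe set 4769937 was at -1.23, -2.17, -1.76 and -2.40 in wild type and at -2.81, -3.59, -4.15 and -1.99 in knockout cortex. Knockout 4 lay among the wild type arrays, and the other 3 knockout arrays lay below them all. The diffSplice deviation was -1.11 (adjusted p = 9e-04), the splicing index difference -1.24 (SE 0.43, adjusted p = 0.92). The signal of the probe set was 7.77 ± 0.70 in wild type and 6.66 ± 0.95 in knockout cortex (SD, n = 4 each), so the knockout mean lay below the filter of 6.84 and the deviation is not an exact size. The diffSplice call ended without knockout 3 (-0.82, adjusted p = 0.14), without wild type 3 and knockout 3 together (-0.79, adjusted p = 0.17) and under array weights (-0.67, adjusted p = 0.056). The other 24 Sema3c probe sets deviated by between -0.28 and 0.32.

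Robo2 probe set 4689475 was at -3.66, -3.87, -3.36 and -3.22 relative to its gene in wild type and at -2.61, -2.85, -2.89 and -3.24 in knockout cortex. Only knockout 4 lay within the wild type range, just below wild type 4. The deviation was 0.62 (diffSplice adjusted p = 0.010), against -0.23 to 0.27 for the other 39 Robo2 probe sets, and the splicing index difference was 0.63 (SE 0.17, unadjusted p = 0.0047, adjusted p = 0.91). The probe set was dim, with a signal of 7.33 ± 0.38 in wild type against 7.87 ± 0.27 in the knockout (SD, n = 4 each), and with wild type 2 (6.79) under the filter. The diffSplice call ended when wild type 1 (adjusted p = 0.059), knockout 1 (0.29), knockout 3 (0.11) or both arrays numbered 3 (0.065) were left out, with deviations of 0.54 to 0.62.

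Nrp1 probe set 4340007 split the knockout arrays into low and high ones. Relative to its gene it was at -0.57, -1.64, -1.09 and -1.30 in wild type and at -2.46, -1.15, -3.11 and -1.06 in knockout cortex, so knockout 2 and 4 lay among the wild type arrays. The deviation was -0.85 (diffSplice adjusted p = 0.013), the splicing index difference -0.79 (SE 0.45, adjusted p = 0.92) and the exact permutation p of that difference 0.286. The diffSplice call ended without knockout 3 (-0.48, adjusted p = 1), wild type 1 (-0.66, adjusted p = 0.35) or knockout 1 (-0.67, adjusted p = 0.52). It also ended without wild type 3 (-0.82, adjusted p = 0.067) or wild type 4 (-0.90, adjusted p = 0.059), where the deviation was about as large as with all arrays. Without wild type 3 and knockout 3 together the deviation was -0.45 (adjusted p = 1).

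**Figure D4:**
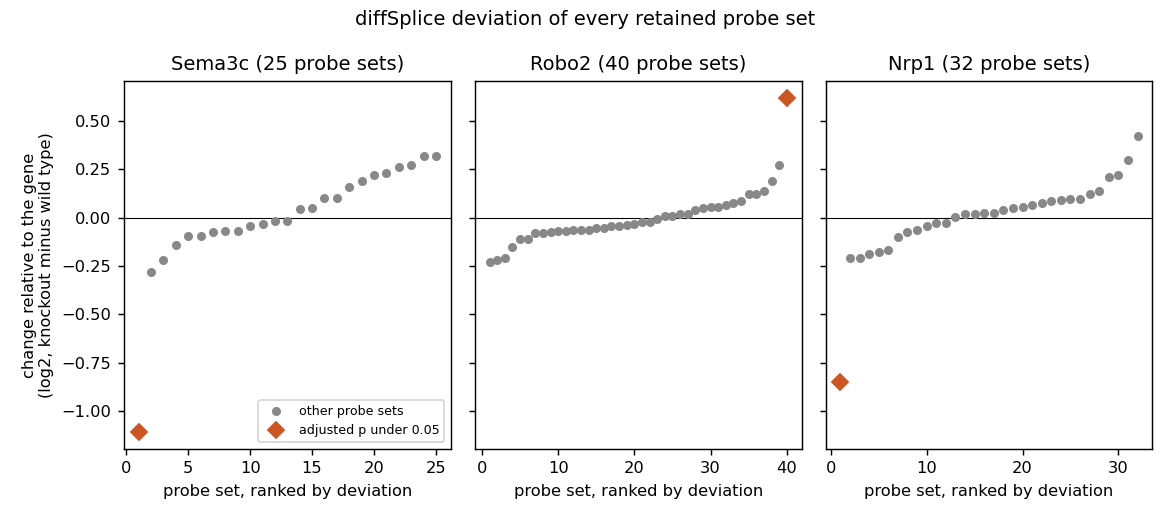
Deviation of each retained probe set from the rest of its gene (log2, knockout minus wild type, y axis) for Sema3c (25 probe sets), Robo2 (40) and Nrp1 (32), ranked along the x axis, with orange diamonds for the probe sets past a diffSplice adjusted p of 0.05. In each gene 1 probe set lies away from the others, at -1.11, 0.62 and -0.85.

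The next probe sets by diffSplice p, 1 per gene, did not pass. Neo1 probe set 5106434 deviated by 0.36 (adjusted p = 0.23), with a single overlap, wild type 3 (-2.34), within the knockout range of -2.46 to -2.20. Plxna1 probe set 4828631 deviated by -0.36 (adjusted p = 0.25) and was lowest in knockout 3 (-1.73). Unc5a probe set 4390107 deviated by -0.42 (adjusted p = 0.32), with knockout 1 at -2.59 and knockout 4 at -1.02, above every wild type array. Of these, Plxna1 passed without wild type 2 (adjusted p = 0.045), and Unc5a without knockout 4 (0.013) and under array weights (0.004). For Dcc, whose 42 retained probe sets deviated by -0.38 to 0.34, and for Robo1, with 40 between -0.26 and 0.32, the gene-level Simes adjusted p from diffSplice was 0.99.

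**Figure D5:**
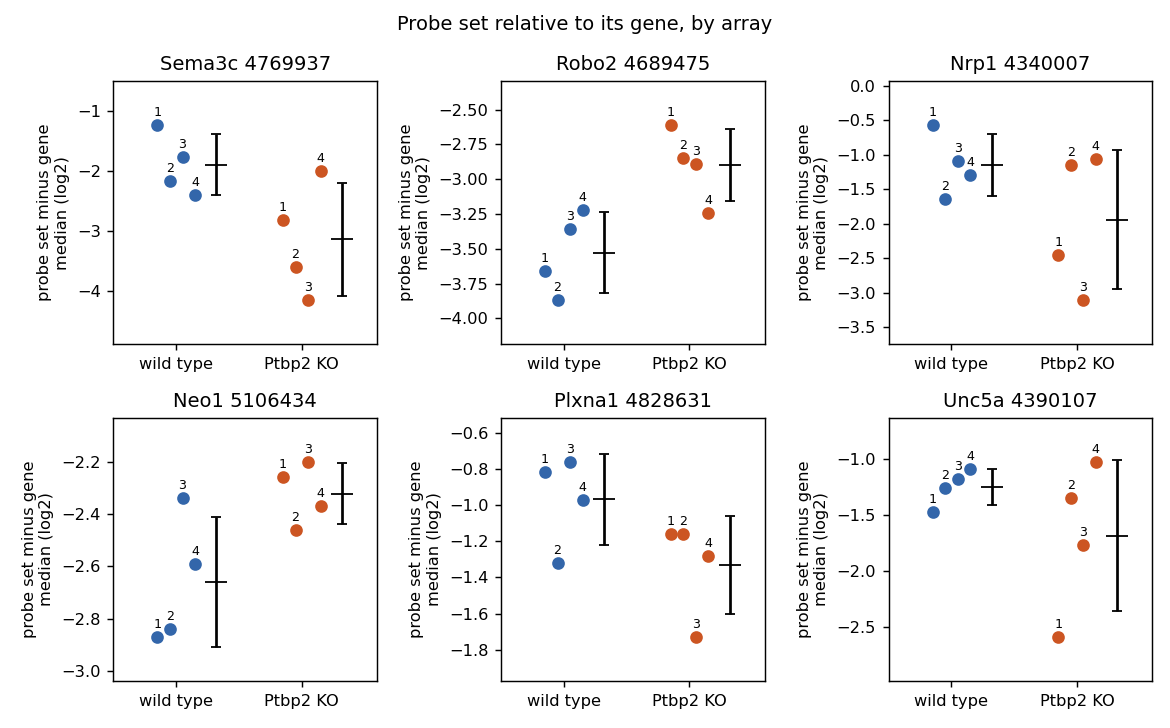
Probe set signal minus the median of its gene (log2, y axis) on each array for the 6 member probe sets with the smallest diffSplice p, 1 per gene, with wild type in blue, knockout in orange, replicate numbers above the points and bars for the mean and SD of 4 arrays. The groups overlap in all 6, and knockout 3 is the lowest array in Sema3c, Nrp1 and Plxna1.

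Other genes of the pathway were counted beside the members. Of 44 further cues and receptors, 42 were tested and 0 passed in level, with a median log2 fold change of 0.006. An unadjusted p under 0.05 was met by 5 (11.9%, beside 6.49% of all genes). The groups did not overlap in 3 (7.14%, beside 3.65% of all genes). The 4 with the smallest p were Draxin, a repellent that binds Dcc and netrin (-0.26, adjusted p = 0.70), Efnb3, a transmembrane ephrin (-0.25, 0.72), Efna4 (0.32, 0.74) and Flrt2, a ligand of Unc5 receptors (0.26, 0.74). Efnb3 passed when its probe sets were averaged (-0.51, adjusted p = 0.0057) and under a filter set at the 75th percentile (-0.53, adjusted p = 0.0082). Draxin was at 9.86, 9.99, 9.86 and 10.05 in wild type and at 9.81, 9.59, 9.78 and 9.56 in knockout cortex, without overlap. Ntn5 and Ntng2 did not have 4 retained probe sets.

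Of 59 genes that act downstream of guidance receptors, 55 were tested and 0 passed, with a median of -0.010. An unadjusted p under 0.05 was met by 4 (7.27%, beside 6.49% of all genes). The groups did not overlap in 4 (7.27%, beside 3.65% of all genes). Rock1, a kinase that acts on the actin cytoskeleton, was at 9.48, 9.38, 9.62 and 9.49 in wild type and at 9.66, 9.85, 9.77 and 9.84 in knockout cortex, without overlap (log2 fold change 0.28, SE 0.091, adjusted p = 0.54). Rock1 passed under the stricter filter (0.46, adjusted p = 0.021). Ngef, the exchange factor ephexin that binds EphA receptors (-0.25), Vasp, an actin regulator (0.19), and Rnd3 (-0.20) had adjusted p of 0.72, 0.75 and 0.77.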

How the data were processed

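Cortex RNA of 8 embryos was measured, 1 array each. Per the labels' protocols, Trizol was used for extraction and the Affymetrix WT sense target assay for labelling. The authors deposited log2 signals for 625534 probe sets, for which the submitters' processing notes name RMA, Affymetrix Expression Console and mm9, with versions not given in the sources. RMA evens out total signal between arrays and compresses low signals. Array medians were 6.82 to 6.93. There is no read depth, and the number of arrays sets the precision.

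GEO's platform annotation gave 1 symbol to 303629 probe sets, several to 5892 and none to 316013; old symbols were updated through RefSeq (GRCm38.p6), where all 40 members were current. Probe sets with a mean at or above the table median (6.84) were retained (312767), and a gene's value was the median of at least 4. Levels were tested with limma 3.58.1 (lmFit, eBayes; R 4.3.3), and usage with diffSplice, with no covariate, all 8 arrays and Benjamini-Hochberg adjustment at 0.05 over all features. The splicing index was an alternative. Intervals are limma's at 95%, and permutation tests are exact and two-sided. The fits were also run on simulated arrays whose noise was independent between probe sets. Probe sets of a gene share RNA on the real arrays, so that run does not give the error rates here.

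Members, gene lists and tests were chosen with earlier results of these data known. Every member is accounted for. Values on every array are given, in the text or in a figure, for the members and member probe sets with the smallest p (at least 6 of each). Up to 4 genes of each pathway list are named by p, 1 of each with its values by array. The marker list without Tcf7l2, and Slc17a7 and the markers of striatum, thalamus and hippocampus by name, were added after seeing the data. The choice of others shown by array (Slit3, Robo1, Plxnd1, Dcc, Efna3 and 1 Unc5c probe set) was made with their values in view. The labels name the arrays of each group biological replicates but give no litter. Some listed genes that were not tested are not reported here by name.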

Additional observations from a re-analysis of the deposited data

Results flagged for a closer look

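In 9 of 106 groups of 4 arrays examined (8.49%, where chance gives about 5%), 1 array lay far from the others. Wild type 3 was the array in 3 of them, at 8.84 for Slit1 (other wild type arrays 9.03 to 9.05), at 8.61 for Slit3 (8.43 each) and at 9.89 for Sema6a (9.36 to 9.44). Wild type 1 was the array in 3 more, at 11.39 for Neo1 (11.20 to 11.23), at 7.65 for Sema3d (7.43 to 7.45) and at 7.86 for Sema3e (7.50 to 7.54). In the knockout, Robo2 was at 10.86 in knockout 3 (10.74 each elsewhere), Robo3 at 7.89 in knockout 4 (7.69 to 7.70) and Ntn4 at 8.00 in knockout 1 (7.96 to 7.97).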

How the results depend on the processing

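The count of members that passed in level was 0 under every alternative run, leaving out each array included, and so was the count of member probe sets that passed in level. Member probe sets with differential usage, 3 by diffSplice, numbered 0 to 5 with 1 array left out (0 without knockout 3, 1 without knockout 1, 5 without knockout 4), 0 without both arrays numbered 3, 1 with the 75th percentile filter, 7 under array weights and 0 by the splicing index. Of the other pathway genes, 2 passed with the 75th percentile filter and 1 with the mean of the probe sets. Ptbp2 ranged from -5.35 to -5.11 with 1 array left out. The fit with a block for the replicate number left 0 members past the threshold in level (smallest adjusted p 0.33) and 3 probe sets in usage, with 22 calls over all genes against 15. Same-numbered arrays correlated at 0.25, -0.0039, 0.033 and 0.17, and 2 of 4 best with their own number, so the numbers were not taken as pairs.

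The sign of the log2 fold change turned in 16 members, none past the threshold, and in 23 it did not. Without both arrays numbered 3 it was -0.042 for Ntn4, -0.065 for Sema3f, -0.013 for Plxna4, -0.0078 for Nrp1, -0.13 for Efna3 and 0.021 for Efna5. Under array weights it was 0.0016 for Slit2, -0.023 for Sema3f, -0.0075 for Plxna4, -0.012 for Nrp1, -0.027 for Efna3 and 0.081 for Efna5. With no signal filter it was -0.042 for Ntn4, 0.0081 for Unc5a, 0.033 for Sema3d and 0.001 for Sema7a, and with the 75th percentile filter 0.027 for Unc5a, -0.0049 for Sema3f, 0.0026 for Sema6b and 0.015 for Sema7a. Quantile normalization gave -0.02 for Ntn4 and -0.0072 for Sema3f, cyclic loess -0.027, -0.013 and, for Plxna4, -0.00089, and the mean of the probe sets -0.047 for Sema3c. With 1 array left out, the ranges that spanned 0 were -0.045 to 0.1 (Ntn4), -0.05 to 0.021 (Unc5a), -0.041 to 0.069 (Sema3f), -0.14 to 0.0083 (Sema6d), -0.086 to 0.09 (Sema7a), -0.0029 to 0.068 (Plxna1), -0.049 to 0.036 (Plxna4), -0.047 to 0.058 (Nrp1), -0.0055 to 0.055 (Epha5), -0.12 to 0.024 (Efna2), -0.12 to 0.14 (Efna3) and -0.092 to 0.049 (Efna5). The cause was not tested. Dim genes (Sema3d, Sema3e, Robo3, Ntn1) are limited by signal near background.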
